A study of Arabidopsis thaliana with 18 samples.

Results

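The far-red pulse response of Arabidopsis petioles was set against that of leaf blades from the same kind of seedling. The quantity is the change of a probe set between 2 light treatments in petioles minus the same change in blades, for 22746 probe sets on 12 of the 18 arrays of the study. Wild-type Arabidopsis thaliana seedlings had grown on rockwool at 22 °C under continuous white light for 19 days. The 4 groups compared, each of 3 arrays described as independent biological replicates, were petioles given a pulse of far-red light before 2 h of darkness (petiole FRD), petioles given 2 h of darkness alone (petiole D), and the blades with the same treatments (blade FRD and blade D). Both organs came from rosette leaves 3 and 4, and all 4 groups share the dark period. The remaining 6 arrays, of petioles and blades after 2 h of further white light (WL), entered only the estimate of the spread. An organ is a mixture of cell types, so fewer cells of a type and less RNA per cell cannot be told apart.

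Phytochromes are photoreceptors that red light activates and far-red light switches off, and a far-red pulse at the start of darkness removes the active form that would otherwise persist. Loss of active phytochrome lets PIF transcription factors act, among whose targets are genes of auxin synthesis and auxin response. In rosette leaves this belongs to shade avoidance, in which petioles elongate while blades stay small. The question the comparison addresses is therefore which transcripts respond to the pulse differently in the organ that elongates and in the blade.

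Each deposited value is a linear ratio, in which 1 stands for the median of the organ's own white-light arrays. They carry no absolute level, and petioles and blades cannot be ranked by level from them. Without levels, markers of the organs could not check the labels and only give how they moved with the pulse. None of the vascular markers had a named probe set. RCA, the activase of Rubisco, stood alone for mesophyll with a difference of 0.01 on the log2 scale. SPCH and FMA stood for the stomatal lineage, with differences of 0.62 and 0.03. Array medians lay between 0.936 and 1.02. The 25S ribosomal RNA control probe set averaged 0.15 ± 0.36 in petiole FRD, 0.05 ± 0.26 in petiole D, 0.34 ± 0.25 in blade FRD and 0.97 ± 0.2 in blade D (mean log2 ratio, SD, n = 3 each). Its petiole change minus its blade change was 0.73, and its part in the results was not tested.

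No probe set passed the test for a difference between the organs. Of 22746 probe sets, 0 (0%) had a limma adjusted p under 0.05, and the smallest adjusted p was 0.0605. At an unadjusted p under 0.05 there were 1197 probe sets (5.26%), of which 705 (3.10%) were positive, meaning a more positive change in petioles, and 492 (2.16%) were negative. That total is near the share of 0.05 to be met with no difference in any probe set. Across 26 alternative settings it ranged from 328 probe sets, after quantile normalization, to 1751, without replicate 3 of blade D. The median difference over all probe sets was -0.01 on the log2 scale, and the middle 95% lay between -1.74 and 2.09. Half-widths of the 95% intervals had a median of 0.797, with quartiles of 0.517 and 2.13. These intervals are not adjusted for the number of probe sets, so at 3 arrays a group a call needed a difference larger than its half-width. AT3G55840, at 3.15 ± 0.43 (SE), still missed the threshold. The 0 calls therefore do not exclude differences of the size of these widths or somewhat above.

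Each organ alone did respond. The pulse changed 249 probe sets in petioles (1.09%), 200 upward (0.879%) and 49 downward (0.215%). In blades it changed 148 (0.651%), 127 upward (0.558%) and 21 downward (0.0923%). These counts depend on the processing: after quantile normalization 33 were called in petioles and 32 in blades, and on the 6 arrays of each organ alone 14 and 10, with 0 downward in each case. With 1 array left out the petiole count ranged from 123 to 277 and the blade count from 92 to 205. Both organs shared 78 of these calls, 75 upward in both and 3 downward in both. Among the 75, the median change was 1.64 in petioles and 1.89 in blades. The differences of these 75 lay between -3.73 and 1.41, with a median of -0.07, and 5 positive and 12 negative ones had an unadjusted p under 0.05. A further 171 probe sets were called in petioles and not in blades, and 70 in blades and not in petioles. Since no difference passed the test, such a split does not show that a probe set responds in one organ and not in the other.

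**Figure D1:**
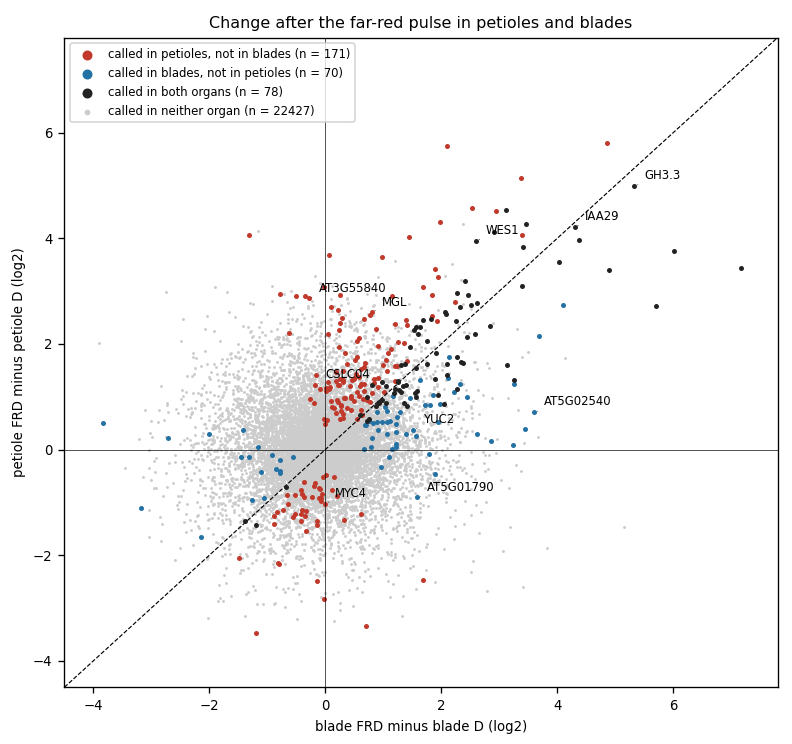
Change after the far-red pulse in petioles (vertical) against blades (horizontal), both on the log2 scale, for all 22746 probe sets; the dashed line marks equal change and colours mark the organs with a call (adjusted p under 0.05). The 78 probe sets called in both organs lie mostly in the upper right, GH3.3 and IAA29 close to the line, while AT3G55840 and AT5G02540 lie far from it on opposite sides.

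Without a test, the arrays themselves were also read. Organs were counted as separated where the smallest FRD array minus the largest D array of one organ exceeded the largest FRD array minus the smallest D array of the other. This held with petioles above blades in 260 probe sets (1.14%) and with petioles below blades in 235 (1.03%). In 202 of the 260 the mean change was positive in petioles and negative in blades, in 44 it was positive in both, and in 14 negative in both. In 180 of the 235 it was negative in petioles and positive in blades, in 38 positive in both, and in 17 negative in both. A choice by the size of the difference itself favours opposite directions, so nothing is read from these counts. Of the 260, 48 were called in petioles and 9 in blades, and of the 235, 26 were called in petioles and 33 in blades.

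The probe sets nearest to the threshold belong to 3 genes known here by locus code, for which no role is given. AT3G55840 had ratios of 10.2, 13.0 and 11.6 in petiole FRD and 1.4, 1.2 and 2.37 in petiole D, against 1.43, 0.922 and 1.95 in blade FRD and 1.67, 1.69 and 1.65 in blade D. Every petiole FRD array stood above every other array, and the blade groups overlapped. The change was 2.86 ± 0.31 in petioles (SE; adjusted p = 0.000269) and -0.29 ± 0.31 in blades (adjusted p = 0.968), and their difference was 3.15 ± 0.43 (95% interval 2.21 to 4.08; adjusted p = 0.0605). This gene therefore rose in petioles by 7.27-fold.

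AT5G02540 was the mirror case. Its ratios were 2.47, 2.13 and 3.05 in petiole FRD and 1.23, 1.33 and 2.26 in petiole D, against 9.49, 12.5 and 10.4 in blade FRD and 0.68, 0.72 and 1.4 in blade D. The blade arrays were wide apart by treatment, while the petiole groups overlapped at 1 array of each. The gene rose in blades by 12.2-fold (3.6 ± 0.28; adjusted p = 1.78e-05), whereas the petiole change of 0.71 ± 0.28 had an adjusted p of 0.47. The difference was -2.9 ± 0.39 (95% interval -3.74 to -2.05; adjusted p = 0.0605).

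AT5G01790 moved in opposite mean directions. Its ratios were 0.176, 0.209 and 0.188 in petiole FRD and 0.39, 0.425 and 0.274 in petiole D, against 0.409, 0.839 and 0.522 in blade FRD and 0.217, 0.141 and 0.217 in blade D. All 12 values were below the white-light level, and the treatments did not overlap in either organ. The gene rose in blades by 3.0-fold (adjusted p = 0.00739), and the petiole change was -0.91 ± 0.25 (adjusted p = 0.165). The difference was -2.49 ± 0.36 (95% interval -3.26 to -1.72; adjusted p = 0.0621). When every ratio under 0.553, the 10th percentile, was raised to that value, 11 of the 12 arrays of this gene reached the floor and the difference was -0.2.

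Among 26 alternative settings, AT5G02540 passed the threshold for the difference in 8, AT3G55840 in 7 and AT5G01790 in 4. Their adjusted p ranged from 0.00423 to 0.403, from 0.00458 to 1.0 and from 0.021 to 1.0. None of the 3 changed direction in any of them. Since they were picked by the p of this same difference, this adds no support.

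Several further genes known by locus code had a called change in petioles beside a blade change that did not pass the test. AT1G67880 had ratios of 1.82, 1.8 and 2.0 in petiole FRD and 0.836, 0.732 and 0.966 in petiole D, against 0.773, 0.791 and 0.757 in blade FRD and 0.853, 0.732 and 0.66 in blade D. It rose in petioles by 2.23-fold (adjusted p = 0.00059), and its difference was 1.1 ± 0.19 (adjusted p = 0.182). AT4G03140 rose in petioles by 4.58-fold and AT3G28200 by 2.44-fold, with differences of 2.15 ± 0.41 and 1.24 ± 0.24 (adjusted p = 0.201 for both). AT5G09300 differed in kind, because its petiole FRD ratios of 1.11, 0.846 and 1.76 were close to the white-light level and its petiole D ratios of 0.257, 0.176 and 0.15 were far below it. Its blade ratios stayed between 0.809 and 1.31 in all 6 arrays, and the difference was 2.43 ± 0.47 (adjusted p = 0.201). AT1G24640 reached a positive difference of 2.92 ± 0.61 (adjusted p = 0.307) through the blade: it fell there to ratios of 0.141, 0.116 and 0.135 in blade FRD, against 0.979, 0.986 and 0.635 in blade D. Its petiole ratios were 3.46, 3.31 and 1.54 in FRD and 2.49, 2.64 and 1.72 in D, which overlap.

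On the negative side, AT1G78170 fell in petioles to 0.201, 0.247 and 0.192 in FRD, against 0.549, 0.52 and 0.418 in D (adjusted p = 0.0176). Its blade ratios were 0.73, 0.961 and 0.686 in FRD and 0.345, 0.551 and 0.696 in D, overlapping, and the difference was -1.84 ± 0.32 (adjusted p = 0.182). The difference of AT1G78170 was -0.39 at the highest of the alternatives. AT1G16500 fell in petioles to 0.394-fold of the D value, with a difference of -1.66 ± 0.3 (adjusted p = 0.182). AT2G14570 fell in petioles to 0.181-fold and had a difference of -4.16 ± 0.77 (adjusted p = 0.182), with a wide interval of -5.81 to -2.51. Part of that difference came from its blade change of 1.69 ± 0.54 (adjusted p = 0.32), where the treatments did not overlap. AT4G28240 instead rose in blades by 2.61-fold (adjusted p = 0.000185), against a petiole change of 0.29 ± 0.14, and its difference was -1.09 ± 0.2 (adjusted p = 0.182).

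Among genes with a symbol, MGL, methionine gamma-lyase, which breaks methionine down, had the smallest p. Its ratios were 12.9, 17.0 and 8.7 in petiole FRD and 1.87, 1.97 and 2.34 in petiole D, against 1.69, 2.23 and 1.81 in blade FRD and 1.15, 1.24 and 0.91 in blade D. The treatments did not overlap in either organ, but the petiole arrays were much further apart. MGL rose in petioles by 6.05-fold (adjusted p = 6.49e-05). The blade change was 0.8 ± 0.23 (adjusted p = 0.227), and the difference 1.8 ± 0.33 (95% interval 1.1 to 2.5; adjusted p = 0.182). A second gene of methionine metabolism, HMT-1, a homocysteine S-methyltransferase that makes methionine, had ratios of 2.16, 4.02 and 2.69 in petiole FRD and 1.25, 0.958 and 1.35 in petiole D, against 1.17, 1.12 and 1.21 in blade FRD and 0.979, 0.766 and 1.14 in blade D. It rose in petioles by 2.43-fold (adjusted p = 0.00594), and its difference was 0.98 ± 0.29 (adjusted p = 0.628).

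**Figure D2:**
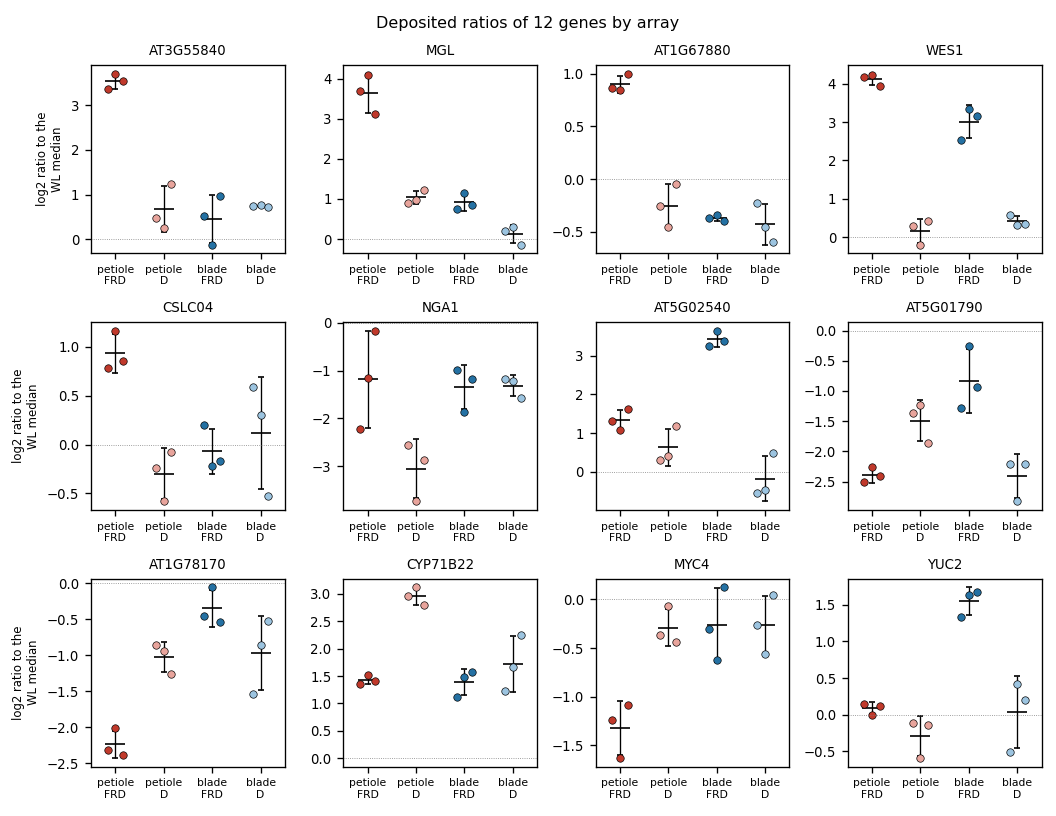
Log2 of the deposited ratio (0 is the white-light median of the organ) in each array of 12 genes, petiole FRD and D in red and blade FRD and D in blue; points are arrays, bars the mean ± SD over 3 arrays, and each panel has its own scale. AT3G55840, MGL and AT1G67880 stand high in the petiole FRD arrays, AT5G02540 and YUC2 in the blade FRD arrays.

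Among the 7 genes with a symbol that rose in both organs, the auxin genes GH3.3, IAA29, IAA30 and WES1 had the largest changes in each organ. GH3 enzymes join amino acids to auxin or other hormones, and many of their genes are induced by auxin. WES1 (GH3.5), one of them, had ratios of 18.1, 18.7 and 15.3 in petiole FRD and 1.21, 0.873 and 1.33 in petiole D, against 5.78, 10.2 and 8.93 in blade FRD and 1.5, 1.24 and 1.26 in blade D. It rose in both organs, by 15.5-fold in petioles (adjusted p = 3.02e-06) and by 6.08-fold in blades (adjusted p = 5.35e-05), and its arrays separated the organs. The difference was 1.35 ± 0.32 (95% interval 0.65 to 2.04; adjusted p = 0.391). GH3.3 rose by 31.8-fold in petioles, with ratios of 33.5, 43.9 and 42.6 in FRD and 0.804, 1.65 and 1.47 in D, and by 40.2-fold in blades, with ratios of 326.0, 452.0 and 930.0 in FRD and 7.5, 9.81 and 28.6 in D. Relative to white light the blade ratios were higher in both treatments, while the difference in pulse response was -0.34 ± 1.16 (95% interval -2.83 to 2.15), an interval too wide to show like responses. It turned to 0.84 under quantile normalization. GH3.9 had a difference of -1.0 ± 0.42 (adjusted p = 0.867), and GH3.1 and GH3.17 had intervals that held 0. Here and below, the measured genes of a list are those matched by symbol or synonym. The annotation did not list 8730 probe sets, so a list can lack members of its family. Over the 5 measured GH3 genes the median difference was -0.34, against -0.01 over all probe sets, and it was 0.84 under quantile normalization.

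Aux/IAA proteins repress auxin response factors, and their genes are themselves auxin-induced. IAA29, a light-regulated member, rose by 18.7-fold in petioles, with ratios of 44.0, 45.2 and 35.2 in FRD and 1.62, 1.56 and 4.25 in D. In blades it rose by 19.7-fold, with ratios of 11.2, 14.8 and 12.6 in FRD and 0.435, 0.612 and 1.03 in D. The difference was -0.08 ± 0.54 with a 95% interval of -1.24 to 1.09, so a 2-fold difference in either direction is within the interval. IAA30 rose by 17.4-fold in petioles, with ratios of 5.67, 6.46 and 5.99 in FRD and 0.345, 0.426 and 0.285 in D, and by 7.53-fold in blades, with ratios of 11.7, 24.1 and 13.2 in FRD and 2.19, 2.24 and 1.79 in D. Petiole D lay below and blade D above the white-light level, and the difference was 1.21 ± 0.54 (adjusted p = 0.924). The difference of IAA30 was 0.05 at the lowest of the alternatives. IAA20 had ratios of 10.6, 16.1 and 5.96 in petiole FRD and 1.12, 3.87 and 0.798 in petiole D, against 3.23, 2.94 and 1.29 in blade FRD and 4.84, 5.18 and 0.754 in blade D. Its difference was 2.94 ± 1.1 (adjusted p = 0.813), and neither organ's change passed the test. The 7 measured Aux/IAA genes had a median difference of 0.69, 5 positive and 2 negative, and 3 of them (IAA20, IAA33 and IAA30) had an unadjusted p under 0.05 in the positive direction, beside 3.10% of all probe sets. Across the alternatives the list's median ranged from 0.38 to 1.25. Several of them, such as the variance trend, leave a difference unchanged by construction, and the list was chosen with earlier results of these data known.

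YUC2 belongs to the YUCCA enzymes that make auxin, and it leaned the other way. Its ratios were 1.11, 0.996 and 1.08 in petiole FRD and 0.92, 0.662 and 0.906 in petiole D, against 2.53, 3.11 and 3.21 in blade FRD and 0.699, 1.34 and 1.15 in blade D. It rose in blades by 2.86-fold (adjusted p = 0.0125), the petiole change was 0.37 ± 0.26 (adjusted p = 0.844), and the difference was -1.14 ± 0.37 (95% interval -1.94 to -0.35; adjusted p = 0.682). The arrays of the organs were separated. YUC4 and YUC6 varied so widely between replicates that their intervals spanned -5.66 to 1.65 and -1.5 to 3.65. The 6 measured genes of auxin synthesis and conjugation had a median difference of 0.0, with 3 on either side. It ranged from -0.59, without replicate 1 of blade D, to 0.24, without replicate 3 of blade D.

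Of the shade and phytochrome genes, HAT2, a homeodomain-leucine zipper factor of the shade-induced class, rose in both organs, by 4.58-fold in petioles and 5.99-fold in blades. Its difference was -0.39 ± 0.41 (95% interval -1.26 to 0.49). FHL, which carries phytochrome A into the nucleus, rose by 3.21-fold in petioles (adjusted p = 0.0388), with a blade change of 1.42 ± 0.36 (adjusted p = 0.137) and a difference of 0.26 ± 0.51 (95% interval -0.82 to 1.35). BIM1, a bHLH partner in brassinosteroid signalling, rose by 2.14-fold in petioles and 2.98-fold in blades, and its difference of -0.47 ± 0.18 had an adjusted p of 0.842.

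Petiole elongation needs the cell wall to yield. Expansins are proteins that loosen the wall, and xyloglucan endotransglucosylases (XTH) are enzymes that cut and rejoin its xyloglucan. Of 19 measured expansins, 11 had a positive and 8 a negative difference, with a median of 0.58. Of 10 XTH genes, 8 were positive and 2 negative, with a median of 0.72. Over all probe sets 11215 of 22746 were positive and the median was -0.01. In neither list did any difference pass the test. An unadjusted p under 0.05 was reached in the positive direction by 3 expansins (EXLA1, EXLA2 and EXPB2) and by EXGT-A3 among the XTH genes, and in the negative direction by XTH32, beside 3.10% of all probe sets in the positive and 2.16% in the negative direction. The 52 other wall genes had a median of 0.07. Under the alternatives the expansin median ranged from -0.02 to 0.68 and the XTH median from 0.39 to 0.97.

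EXPA8 alone among the expansins was called in either organ. It rose by 3.16-fold in petioles, with ratios of 1.49, 1.86 and 0.584 in FRD and 0.383, 0.331 and 0.405 in D, and by 5.07-fold in blades, with ratios of 0.308, 0.482 and 0.218 in FRD and 0.0565, 0.0755 and 0.0583 in D. The difference was -0.68 ± 0.51 and became 1.09 when ratios were floored at the 10th percentile, under which every blade array lies. CSLC04, a synthase of the xyloglucan backbone, had ratios of 1.72, 2.24 and 1.8 in petiole FRD and 0.848, 0.669 and 0.946 in petiole D, against 1.15, 0.857 and 0.889 in blade FRD and 1.5, 1.23 and 0.697 in blade D. It rose in petioles by 2.34-fold (adjusted p = 0.0238), and its difference was 1.41 ± 0.34 (95% interval 0.68 to 2.15; adjusted p = 0.391). ATPMEPCRB, a pectin methylesterase, and GAUT15, of the galacturonosyltransferase family that builds pectin, had differences of 1.46 ± 0.47 and 0.71 ± 0.23, with no called change in either organ.

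**Figure D3:**
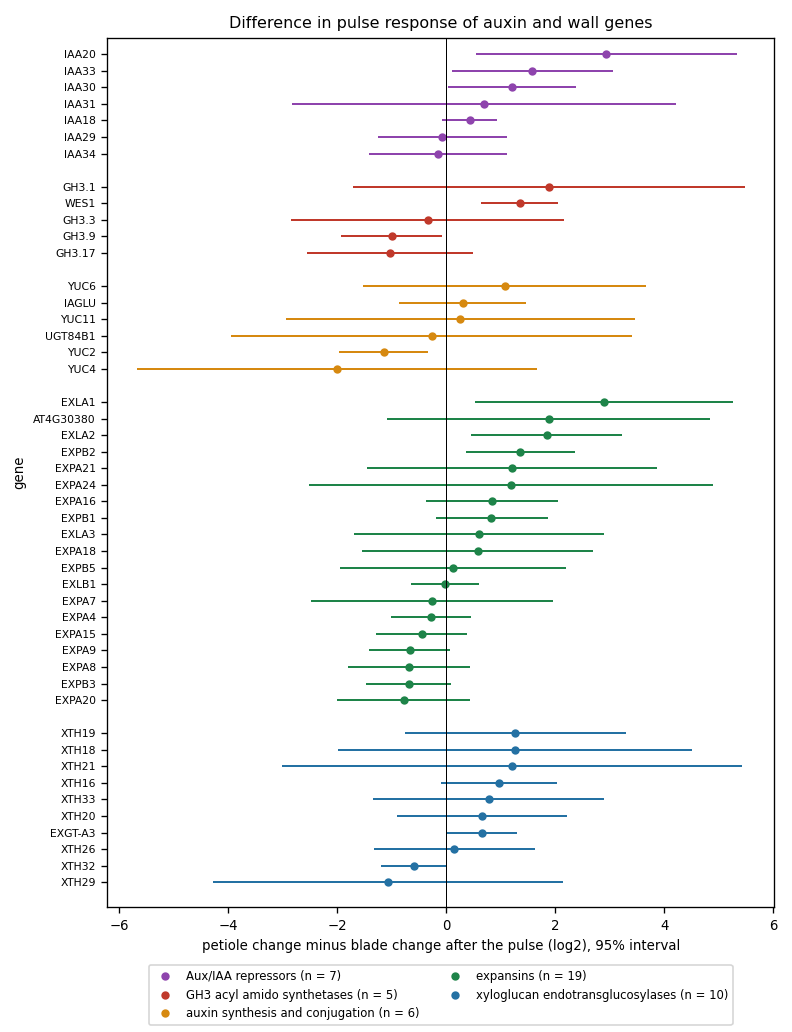
Petiole change minus blade change after the pulse (log2) with its 95% interval for the 47 measured genes of 5 auxin and cell wall lists, named on the vertical axis. No difference passed the test; 5 of the 7 Aux/IAA points and 8 of the 10 XTH points lie to the right of 0, and most intervals hold 0.

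For several genes, of the wall and others, 1 array decided whether the difference passed the test. Replicate 3 of blade D lay far below the other blade D arrays in EXO, a brassinosteroid-induced gene of growing tissue, whose blade D ratios were 24.5, 15.8 and 0.972. The other groups of EXO were tighter, at 12.9, 17.2 and 17.3 in petiole FRD, 4.09, 2.12 and 2.35 in petiole D and 8.45, 3.82 and 7.24 in blade FRD. Its difference was 2.75 ± 1.22 (adjusted p = 0.924) with all arrays and 4.2 ± 0.55 (adjusted p = 0.0184) without that array. EXLA2 had blade D ratios of 2.52, 1.87 and 0.531, and a difference of 1.84 with all arrays and 2.52 without that array (adjusted p = 0.0484). CSLC04 reached 1.73 (adjusted p = 0.0339) and AT3G19680 2.19 (adjusted p = 0.0303) without it. EXLA1 had blade D ratios of 7.61, 6.19 and 0.698. Its difference was 2.9 ± 1.09 with all arrays (adjusted p = 0.825). Without that array it was 4.0 ± 0.76 and still did not pass (adjusted p = 0.0688). Only the blade change of EXLA1 passed without the array, at -2.82 ± 0.56 (adjusted p = 0.0382), against -1.72 ± 0.77 with it. Without that array 18 probe sets passed the test for the difference, 12 positive and 6 negative, against 0 with all arrays. This array was below both other blade D arrays in 43.8% of all probe sets, in 10 of the 19 expansins (52.6%) and in 5 of the 10 XTH genes (50%), shares near that of all probe sets. Among the lists of at least 5 genes the share was highest for light harvesting and photosynthesis, where it lay below both in 8 of 8 genes, with a median deviation of -0.48 on the log2 scale from the mean of the other blade D arrays.

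**Figure D4:**
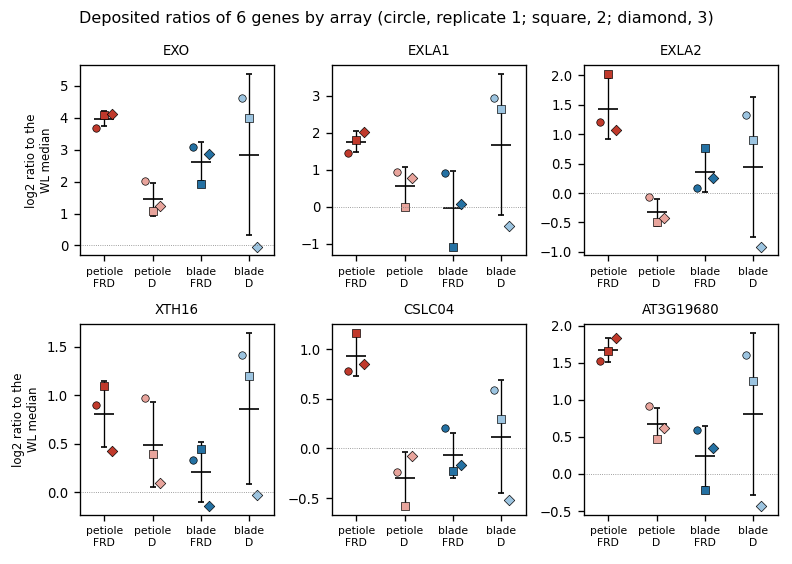
Log2 of the deposited ratio in each array of 6 genes chosen after their values were seen, with the replicate given by the symbol, bars giving the mean ± SD over 3 arrays and each panel on its own scale. The diamond of blade D, replicate 3, lies below both other blade D arrays in all 6 genes.

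The remaining genes with a symbol covered metabolism, defence and regulation. CYP71B22, a cytochrome P450, fell in petioles to 2.57, 2.88 and 2.65 in FRD, against 7.84, 8.69 and 6.98 in D (adjusted p = 0.00276). Its blade ratios of 2.18, 2.79 and 2.96 in FRD and 2.34, 3.16 and 4.78 in D overlapped, and the difference was -1.21 ± 0.31 (adjusted p = 0.448). The dark value of petioles was the one that stood apart. MYC4, a bHLH factor of jasmonate response, fell in petioles to 0.425, 0.323 and 0.472 in FRD, against 0.775, 0.951 and 0.737 in D (adjusted p = 0.0432). Its blade change was 0.0 ± 0.22, and the difference -1.02 ± 0.31 (adjusted p = 0.681). NAI1, a bHLH factor needed for endoplasmic reticulum bodies, fell in blades to 0.528, 0.321 and 0.679 in FRD, against 4.64, 3.89 and 4.73 in D (adjusted p = 0.00694). Its petiole ratios were 3.0, 0.944 and 0.874 in FRD and 5.12, 2.82 and 1.69 in D, and the difference was 2.08 ± 0.71 (adjusted p = 0.728).

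NGA1, a B3-domain regulator of leaf margin shape, had ratios of 0.215, 0.45 and 0.889 in petiole FRD and 0.17, 0.075 and 0.137 in petiole D, against 0.503, 0.276 and 0.442 in blade FRD and 0.443, 0.431 and 0.337 in blade D. All 12 were below the white-light level, the petiole D arrays most so. The difference was 1.9 ± 0.62 (adjusted p = 0.715), and it was 0.23 at the lowest of the alternatives. Genes with a symbol called in petioles and not in blades, other than those above, were AZG1, a purine transporter (2.29-fold), bZIP52 (2.12-fold) and BZIP61 (3.91-fold), both basic leucine zipper factors, WRKY22, a defence-related transcription factor (2.26-fold), and iqd32 (1.67-fold). Their differences lay between 0.28 and 1.05, and that of WRKY22, the smallest, was -0.06 under quantile normalization. SFP1, a sugar transporter, fell in blades to 0.415-fold, and its petiole change of -0.95 ± 0.23 had an adjusted p of 0.0735.

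Other genes that the smallest p-values brought in had no called change in either organ. The positive ones were cdc2cAt, of the cyclin-dependent kinase family, THO7, a subunit of the THO complex, CYP71B37, EXPB2 and pEARLI4, with differences from 0.49 to 4.57. For THO7 a second probe set had a difference of 1.38 (unadjusted p = 0.0884), from changes of 0.37 in petioles and -1.0 in blades. The first had a difference of 0.97, from changes of 0.81 and -0.16. cdc2cAt varied widely, with 0.963, 0.955 and 4.75 in petiole FRD and 0.361, 0.304 and 0.207 in petiole D, against 0.683, 0.895 and 0.803 in blade FRD and 1.34, 2.3 and 11.1 in blade D. The negative ones were UGT71C1 and UGT84A4, both UDP-glycosyltransferases, HCT of phenylpropanoid synthesis, BRH1, a brassinosteroid-responsive RING protein, FY, a factor of RNA 3′-end processing, ASF1B, a histone chaperone, TO2, a thioredoxin, and RECQI1, a RecQ helicase. Their differences lay between -4.48 and -0.43, and UGT71C1, at the far end, had an interval of -7.49 to -1.46.

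The other lists showed no difference that passed the test. The 42 jasmonate and defence genes had a median difference of 0.09, the 20 calcium and touch genes 0.1, the 35 starvation and sugar genes 0.18, and the 22 cytochrome P450 genes 0.07. In the alternatives these medians ranged from 0.02 to 0.15, from -0.03 to 0.17, from 0.03 to 0.23 and from -0.07 to 0.18, in the same order of lists. The 8 genes of light harvesting and photosynthesis had a median of 0.0, with 4 on either side, a split that rests on single arrays. Without replicate 3 of blade D the median was 0.16 with 7 of 8 positive, and without replicate 1 of blade D it was -0.14 with 0 of 8 positive. The 51 UGT glycosyltransferases leaned negative, 33 against 18, with a median of -0.2, which ranged from -0.26 to -0.06 in the alternatives.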

How the data were processed

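Per the labels, RNA of blades and petioles was labelled with biotin for Affymetrix arrays. The authors deposited linear ratios. In each organ the median of the 3 WL arrays was exactly 1 in all 22810 probe sets, so each value is a ratio to that median, a reading from the deposited values. The division drops out of the comparison. Steps before it are not given in the sources used here. The 64 control probe sets were left out.

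Log2 ratios, with no pseudocount, were fitted with limma 3.58.1 (R 4.3.3) over 18 arrays, 1 mean per group, with 12 residual and 1.459 prior degrees of freedom. Benjamini-Hochberg adjustment ran over 22746 probe sets, and a call is an adjusted p under 0.05, two-sided. The 3 missing values, in 2 tested probe sets and 2 arrays of replicate 3, were left out of the fit. The code of the fit was checked on simulated data with known differences and independent noise, which does not give its power on these data.

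The platform annotation gave 1 gene for 13513 probe sets and several for 503, and did not list 8730. A symbol was held by 1580. Named genes are those of smallest p per direction, symbol genes called in an organ with a change of at least 1 on the log2 scale, list members, and genes called under an alternative. The members, lists and rule were chosen with earlier results of these data known. Sequences and coordinates are not given, since no table held them for a build named in the files.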

Additional observations from a re-analysis of the deposited data

Results flagged for a closer look

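The 25S ribosomal RNA control probe set, which is not among the tested probe sets, averaged 0.15 ± 0.36 in petiole FRD, 0.05 ± 0.26 in petiole D, 0.34 ± 0.25 in blade FRD and 0.97 ± 0.2 in blade D (mean log2 ratio, SD, n = 3 each). It drew attention because the blade D arrays stood above their white-light arrays, at -0.08 ± 0.22, while the petiole D mean lay within 1 SD of theirs, at -0.05 ± 0.1. This difference between the organs was not tested.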

How the results depend on the processing

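Of 26 alternatives, 0 probe sets passed the test for the difference in 16. The count was 2 with ratios floored at the 10th percentile, 3 with the 10th percentile as a pseudocount and 9 with the 25th, 3 without the noisiest quartile of probe sets and 3 with array weights. Leaving out 1 array gave 0 to 18: 18 when replicate 3 of blade D was dropped, 6 for replicate 3 of petiole D, and 1 each for replicates 2 and 3 of petiole FRD. The petiole count of 249 was 135 on the 12 FRD and D arrays, 14 on the 6 petiole arrays, 33 after quantile normalization and 123 to 277 with 1 array left out. The blade count of 148 was 87, 10, 32 and 92 to 205 in the same settings. The causes were not tested.

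The main fit held no block. With the replicate number as a block (replicate block), 1 probe set, AT5G02540, passed for the difference (adjusted p = 0.0276). In that setting 1521 probe sets had an unadjusted p under 0.05 for the difference, and 289 were called in petioles and 181 in blades. With petiole and blade arrays of the same treatment and number as a block (seedling replicate block), 0 passed. An unadjusted p under 0.05 was then reached by 1475. The labels do not say that a number marks a shared batch. Over 18 same-numbered pairs of arrays from different groups the correlation of deviations was 0.00218 to 0.149, over 0.1 in 3, and 11 of 12 arrays correlated best with their own number.

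None of the 36 probe sets named for their small p changed direction in any alternative. They were picked by the p of this same difference, so this adds no support. Several alternatives, such as the variance trend, leave the difference unchanged by construction. Of all 135 named, 29 changed direction, all with differences that missed the threshold in every setting in which they turned. After quantile normalization GH3.3 was 0.84, GID1C 0.0, WRKY22 -0.06 and BRL1 -0.06. With the 75th percentiles aligned BRL1 was -0.02, RTE1 -0.01 and PSBW -0.01. Array weights gave IAA29 0.07, ARR15 -0.01 and RR16 0.0. The floor at the 10th percentile gave IAGLU -0.33, EXPB5 -0.12, IAA29 0.04, EXPA8 1.09, CYP71B26 0.06, ARR15 -0.25, PID2 0.17 and exactly 0.0 for GI and EXPB1, and the floor at the 1st percentile gave EXPA8 0.38. The 10th percentile as a pseudocount gave IAA29 0.45, EXPA8 0.42 and PID2 0.04, and the 25th gave EXLB1 0.0, GID1C 0.0, IAA29 0.57, EXPA8 0.4 and PID2 0.05. With 1 array left out, differences ranged from -0.9 to 0.75 for UGT84B1, -0.92 to 0.09 for GH3.3, -0.25 to 0.1 for PSBY, -0.12 to 0.7 for IAGLU, -0.24 to 0.13 for EXLB1, -0.17 to 0.22 for GID1C, -0.23 to 1.08 for RR18 and -0.05 to 0.64 for FHL. They ranged from -0.02 to 0.25 for LHCB4.1, -0.55 to 0.62 for EXPB5, -0.02 to 1.13 for EXLA3, -0.41 to 0.4 for IAA29, -0.24 to 0.62 for XTH26, -0.45 to 1.7 for IAA31, -1.15 to 0.32 for EXPA7 and -0.66 to 0.19 for IAA34. They ranged from -0.58 to 1.35 for YUC11, -0.36 to 0.87 for CCR2, -0.22 to 0.63 for ARR15, -0.24 to 0.3 for BRL1, -0.37 to 0.27 for RR16, -0.07 to 0.23 for RTE1, -0.07 to 0.17 for PSBW and -0.76 to 0.77 for PID2.

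Signal over background is unknown, because ratios carry no level, and nothing was left out for being dim. The number of arrays limits precision.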
